A study of Ovis aries with 6 samples.

Results

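Described here are 9 genes for potassium and chloride channels of the choroid plexus epithelium, chosen by name: the potassium channels KCNK1, KCNK3, KCNJ13, KCNQ1, KCNA1 and KCNA3, the auxiliary subunit KCNE2, and the chloride channel genes CLIC6 and CLCN2. These genes and the wider gene lists below were picked with earlier results of these data known. Their counts of calls beside all genes are therefore descriptive. Each of the 9 was found once among the 33609 genes listed, and 8 of the 9 had enough counts to be tested. The tissue was the choroid plexus of ewes, from which polyA RNA was sequenced. The groups were thyroidectomised ewes kept in long days (THX), control ewes with their thyroid, in long days (Long) and in short days (Short). The control groups are together called thyroid-intact, and whether they had a sham operation is not given in the labels. RNA of 3 to 4 ewes was mixed in equal amounts into each pool, and each group had 2 pools, drawn from 7 ewes in the THX group and 8 in each of the others. Thyroidectomised ewes were kept in long days only, so THX and Short pools differ in both thyroid state and day length.

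The choroid plexus epithelium secretes cerebrospinal fluid by moving sodium, chloride, bicarbonate and water from blood to ventricle. Its sodium pump sits, unusually for an epithelium, on the membrane that faces the cerebrospinal fluid, and the potassium it brings in has to leave again through potassium channels. In rodents the inward rectifier KCNJ13 and the voltage-gated channels KCNA1, KCNA3 and KCNQ1 with KCNE2 have been described in this epithelium, and chloride channels provide paths for chloride to leave.

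Total counts per pool ran from 48282883 to 82100653. Levels are given in CPM, from counts scaled to TMM-adjusted library totals but not to transcript length, so levels are compared between pools and not between genes. The thyroid hormone target HR checked the thyroid labels, with 3.36 and 2.76 CPM in THX pools, against 23.7 and 23.4 CPM in Long pools and 25.6 and 25.3 CPM in Short pools. All 10 epithelial markers measured were present in every pool, with transthyretin (TTR) at 118872 and 140707 CPM in THX pools, 107613 and 109231 CPM in Long pools, and 86397 and 92709 CPM in Short pools. In the 3 groups the pools are mixtures of ewes and of cell types, so p-values measure the spread between pools, and fewer cells of a type cannot be told apart from less RNA per cell. Differences are log2 values fitted by edgeR to all 6 pools, and a gene is said to have risen or fallen when its p, adjusted over all 18019 tested genes, was under 0.05.

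KCNK3 was the channel among the 9 that fell after thyroidectomy. KCNK3, also called TASK-1, is a background potassium channel of the 2-pore-domain family that is closed by extracellular acid. It had 4.01 and 3.72 CPM in THX pools, against 8.47 and 8.52 CPM in Long pools and 10.005 and 9.36 CPM in Short pools. Both THX pools lay below all 4 thyroid-intact pools, and the Long pools lay just below the Short pools. These levels rest on 228 and 247 counts in THX pools, 475 and 463 in Long pools and 846 and 470 in Short pools. KCNK3 fell 2.197-fold in THX relative to Long pools (3.87 ± 0.207 against 8.50 ± 0.0322 CPM, SD, n = 2 each; log2 difference −1.14, SE 0.142, adjusted p = 0.0383). It fell 2.51-fold relative to Short pools (9.68 ± 0.456 CPM; log2 difference −1.32, SE 0.142, adjusted p = 0.0216). Against all 4 thyroid-intact pools the decrease was 2.35-fold (9.09 ± 0.734 CPM, n = 4; log2 difference −1.23, 95% interval −1.53 to −0.93, adjusted p = 0.013). These 3 comparisons share the same THX pools and are not independent of each other. Between Long and Short pools KCNK3 had a log2 difference of −0.19 (95% interval −0.52 to 0.14, adjusted p = 0.538).

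The KCNK3 call depended on which pools were fitted. With only the 4 pools of the groups compared, it was lost against Long pools (log2 difference −1.14, adjusted p = 0.103) and against Short pools (−1.32, adjusted p = 0.085). Over the 6 fits that each left out 1 pool, the log2 difference of THX from Long pools ran from −1.19 to −1.08 with adjusted p from 0.0878 to 0.273, so the call was lost without any one of the 6 pools. The call against Short pools held without THX pool 1 (adjusted p = 0.0336), and that against the thyroid-intact pools held without THX pool 1 or Short pool 2 (adjusted p = 0.0444 and 0.0369). Without the other pools these calls were lost, at adjusted p from 0.0531 to 0.137 and from 0.0515 to 0.0755. The summed levels of fibroblast and of mural markers were also lower in THX pools. Summed over 6 fibroblast markers, the level was 441 and 582 CPM in THX pools, 806 and 735 CPM in Long pools, and 657 and 846 CPM in Short pools. In log2 difference from Long pools 6 of 6 were below 0 and 1 of 6 was called (0.283% of all genes). Both THX pools lay below both Long pools in 6 of 6 (18.7% of all genes), and below all thyroid-intact pools in 5 of 6 (11.3%). Summed over 5 mural markers the level was 763 and 906 CPM in THX pools, 943 and 913 CPM in Long pools, and 961 and 1232 CPM in Short pools. In log2 difference from Long pools 5 of 5 were below 0, from −0.39 to −0.0006, and none was called. Of these 5, 1 was separated between THX and Long pools (37.2% of all genes), and 0 between THX and all thyroid-intact pools (22.2%). Of 6 endothelial markers, 3 lay above and 3 below 0 in log2 difference from Long pools. No fibroblast or mural marker in these lists was at 0 in any pool, and their part in the KCNK3 result was not tested.

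**Figure D1:**
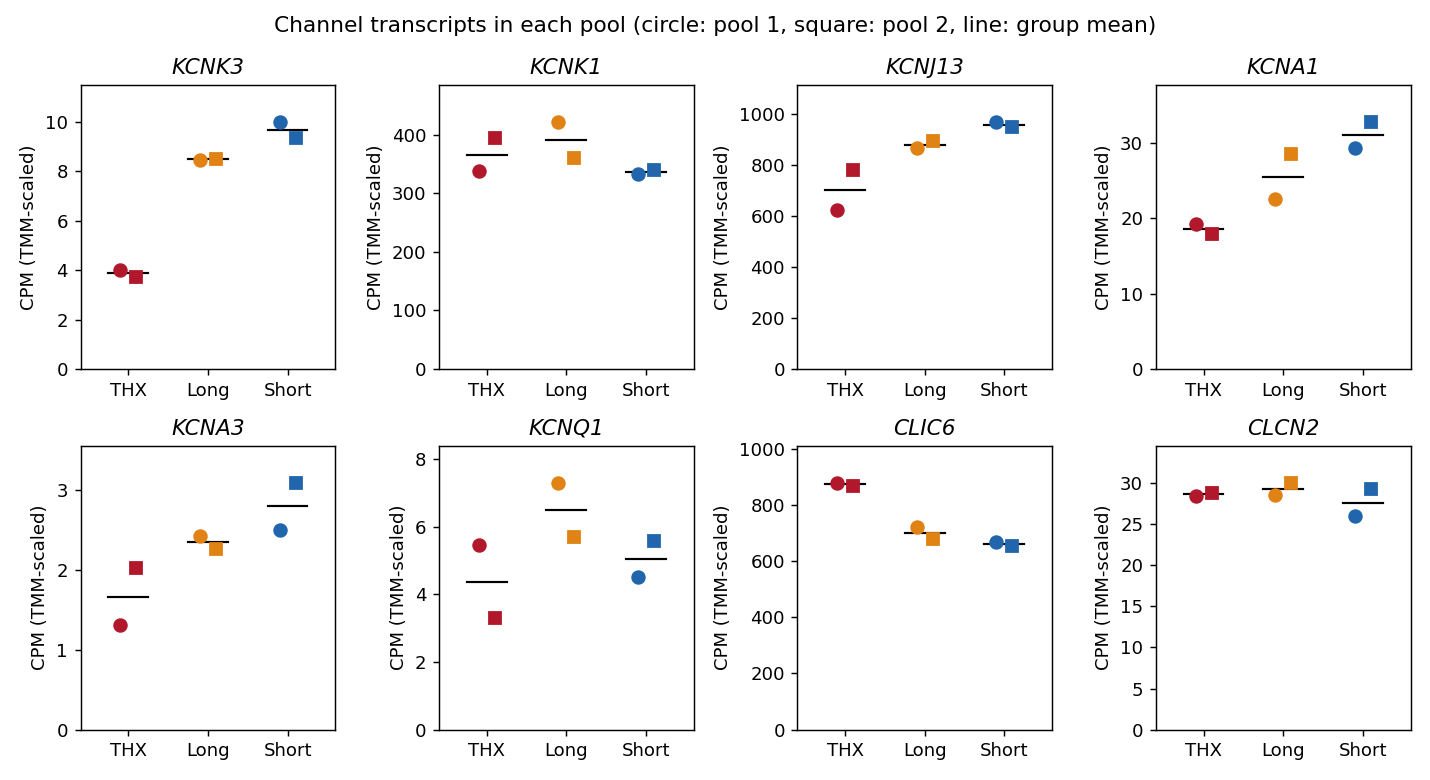
Level of each of the 8 tested channels in the 6 pools, in TMM-scaled CPM on the vertical axis from 0, by group; the black line is the mean of the 2 pools. KCNK3 lies at 3.72 to 4.01 CPM in THX pools and at 8.47 CPM or more in all thyroid-intact pools, and CLIC6 is highest in THX pools.

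KCNK1, also called TWIK-1, belongs to the same 2-pore-domain family and did not follow KCNK3. It had 338 and 394 CPM in THX pools, 422 and 360 CPM in Long pools, and 334 and 340 CPM in Short pools. The THX pools overlapped with both other groups. The log2 difference was −0.10 from Long (95% interval −0.35 to 0.16, adjusted p = 0.912) and 0.12 from Short pools (−0.14 to 0.38, adjusted p = 0.542), so either direction lies within both intervals. Per 1000 counts of KCNK1, KCNK3 had 11.9 and 9.45 counts in THX pools, against 20.1 and 23.7 in Long pools and 29.97 and 27.5 in Short pools.

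KCNJ13, or Kir7.1, is an inward rectifier and in rats a channel of the membrane that faces the cerebrospinal fluid. It had 622 and 778 CPM in THX pools, against 865 and 893 CPM in Long pools and 968 and 947 CPM in Short pools. The groups did not overlap, in the order THX, Long, Short from low to high, but the 2 THX pools were further apart than any 2 thyroid-intact pools. The log2 difference of −0.33 from Long pools did not pass by edgeR (SE 0.112, adjusted p = 0.432), nor did that of −0.45 from Short pools (SE 0.112, adjusted p = 0.0992) or −0.39 from all thyroid-intact pools (95% interval −0.62 to −0.16, adjusted p = 0.141). With 1 pool left out, the log2 difference from Short pools ran from −0.62 to −0.30. DESeq2 called KCNJ13 lower in THX than in Short pools (adjusted p = 0.00428) and than in all thyroid-intact pools (0.00611), comparisons in which it called 11.7% and 6.59% of all genes. In the RefSeq table of the ARS-UI_Ramb_v3.0 assembly, used for names and neighbours only, KCNJ13 lies within the span of GIGYF2, a gene for a translational regulator. GIGYF2 had 97.2 and 96.6 CPM in THX pools, 96.1 and 96.7 CPM in Long pools, and 101 and 93.9 CPM in Short pools, with a log2 difference of 0.01 between THX and Long pools. The strand setting of the counting is not given in the sources used here.

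The voltage-gated channels KCNA1 (Kv1.1) and KCNA3 (Kv1.3) open on depolarisation, and both have been described in rat choroid plexus. KCNA1 had 19.3 and 17.9 CPM in THX pools, against 22.6 and 28.5 CPM in Long pools and 29.4 and 32.8 CPM in Short pools. Its groups did not overlap, in the same order as for KCNJ13. The log2 difference was −0.46 from Long (SE 0.132, adjusted p = 0.322), −0.74 from Short (SE 0.132, adjusted p = 0.058) and −0.60 from all thyroid-intact pools (95% interval −0.88 to −0.33, adjusted p = 0.0782), none of which passed by edgeR. With 1 pool left out, the log2 difference from Short pools ran from −0.82 to −0.66. DESeq2 called KCNA1 lower in THX than in Short pools (adjusted p = 9.68e-05) and than in all thyroid-intact pools (0.000415).

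KCNA1 is also a channel of myelinated axons, and the 6 oligodendrocyte markers summed to 72.7 and 80.2 CPM in THX pools, 79.8 and 96.5 CPM in Long pools, and 93.7 and 91.3 CPM in Short pools. Of the 6 neuronal markers, which summed to 331 and 339 CPM in THX pools, 293 and 315 CPM in Long pools, and 305 and 297 CPM in Short pools, SNAP25 held most of the sum, while SYT1, NEFL, STMN2 and GAP43 stayed under 1 CPM in every pool. None of these markers was at 0, and their part in the KCNA1 values was not tested.

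KCNA3 is a channel of T lymphocytes as well. It had 1.30 and 2.02 CPM in THX pools, 2.43 and 2.26 CPM in Long pools, and 2.50 and 3.09 CPM in Short pools, from 74 to 211 counts per pool. THX pools lay below Long pools and Long pools below Short pools, though THX pool 2 and Long pool 2 were closer to each other than the 2 THX pools. The log2 difference was −0.49 from Long (95% interval −1.14 to 0.15, adjusted p = 0.694) and −0.74 from Short pools (−1.38 to −0.10, adjusted p = 0.178). The 5 lymphocyte markers measured, among them the T cell genes CD3E and CD3D, summed to 17.3 and 20.0 CPM in THX pools, 23.0 and 22.9 CPM in Long pools, and 19.2 and 24.8 CPM in Short pools. Each of the 5 had a log2 difference below 0 between THX and Long pools, none was at 0 in any pool, and their part in the KCNA3 values was not tested.

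KCNQ1 (Kv7.1) forms a channel with KCNE subunits, and in mouse choroid plexus its partner is KCNE2. It had 5.46 and 3.30 CPM in THX pools, 7.30 and 5.69 CPM in Long pools, and 4.52 and 5.58 CPM in Short pools. The THX pools lay below the Long pools and overlapped with the Short pools, and the spread within groups was large beside the differences. The log2 difference was −0.57 between THX and Long pools (95% interval −1.22 to 0.08, adjusted p = 0.62), −0.20 between THX and Short pools (−0.86 to 0.45, adjusted p = 0.682) and 0.37 between Long and Short pools (−0.28 to 1.01, adjusted p = 0.548). At this spread a change of KCNQ1 by a factor as large as that of KCNK3 in THX relative to Long pools lies within the interval.

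KCNE2 was close to unmeasured in these counts. It had 1 count in each THX pool and 0 counts in every Long and Short pool. A count of 0 allows up to 3 counts, which is 0.0535 and 0.0552 CPM in Long pools and 0.0355 and 0.0598 CPM in Short pools, and these limits cover counting error only. The THX values of 0.0176 and 0.0151 CPM are under this limit too, so no difference was detectable. The RefSeq table holds KCNE2 under the same identifier, between SMIM11 and MRPS6. Both neighbours were counted in all pools: SMIM11, listed as SMIM11A, had 34.8 and 43.7 CPM in THX pools, 34.7 and 33.8 CPM in Long pools, and 25.1 and 27.5 CPM in Short pools, and MRPS6 had 293 CPM or more in every pool. The reason for the low count was not tested, and it does not show that the KCNE2 transcript was absent.

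The other KCNE subunits were counted. KCNE1, which slows KCNQ1 in the heart and inner ear, had 11 and 15 counts in THX pools, against 41 and 56 in Long pools and 62 and 44 in Short pools. In CPM this was 0.194 and 0.226 in THX pools, 0.731 and 1.03 in Long pools, and 0.733 and 0.876 in Short pools, with no overlap between THX and the other groups. Its log2 difference from the thyroid-intact pools was −1.99 (SE 0.34) and did not pass (adjusted p = 0.0561); KCNE1 was singled out after its values were seen. KCNE3, which holds KCNQ1 open in intestinal epithelium, had 7.52 and 6.36 CPM in THX pools, 7.60 and 5.48 CPM in Long pools, and 7.98 and 6.39 CPM in Short pools. Its log2 difference between THX and Long pools was 0.08 (95% interval −0.42 to 0.59).

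CLIC6 lay in the opposite direction to KCNK3, KCNJ13, KCNA1 and KCNA3. It belongs to the chloride intracellular channel family, is named for that family rather than for a firmly established channel role, and is a widely used marker of choroid plexus epithelium. CLIC6 had 879 and 867 CPM in THX pools, against 721 and 679 CPM in Long pools and 667 and 653 CPM in Short pools. The groups did not overlap, in the order Short, Long, THX from low to high. The log2 difference was 0.32 from Long (SE 0.0735, adjusted p = 0.222), 0.40 from Short (SE 0.0736, adjusted p = 0.0615) and 0.36 from all thyroid-intact pools (95% interval 0.21 to 0.51, adjusted p = 0.058), and none passed by edgeR. With 1 pool left out, the log2 difference from Short pools ran from 0.39 to 0.42.

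DESeq2 called CLIC6 higher in THX than in Long pools (adjusted p = 0.00521), than in Short pools (2.54e-05) and than in all thyroid-intact pools (1.39e-05). DESeq2 called 2.46%, 11.7% and 6.59% of all genes in these comparisons. The 10 epithelial markers summed to 125707 and 148063 CPM in THX pools, 114660 and 116477 CPM in Long pools, and 93842 and 99623 CPM in Short pools, a sum made up mostly of TTR. Of these 10 markers 5 lay above and 5 below 0 in log2 difference between THX and Long pools, with a median of −0.02 and 1 called lower. The part of epithelial cell share in the CLIC6 values was not tested.

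CLCN2 (ClC-2) is a chloride channel that opens on hyperpolarisation. It had 28.4 and 28.7 CPM in THX pools, 28.5 and 30.01 CPM in Long pools, and 26.0 and 29.2 CPM in Short pools. All 3 groups overlapped. The log2 difference was −0.03 from Long pools (95% interval −0.25 to 0.18, adjusted p = 0.98) and 0.05 from Short pools (−0.17 to 0.27, adjusted p = 0.76). In the RefSeq table its span overlaps FAM131A, which had 29.8 and 34.0 CPM in THX pools, 37.1 and 35.3 CPM in Long pools, and 35.8 and 38.1 CPM in Short pools.

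**Figure D2:**
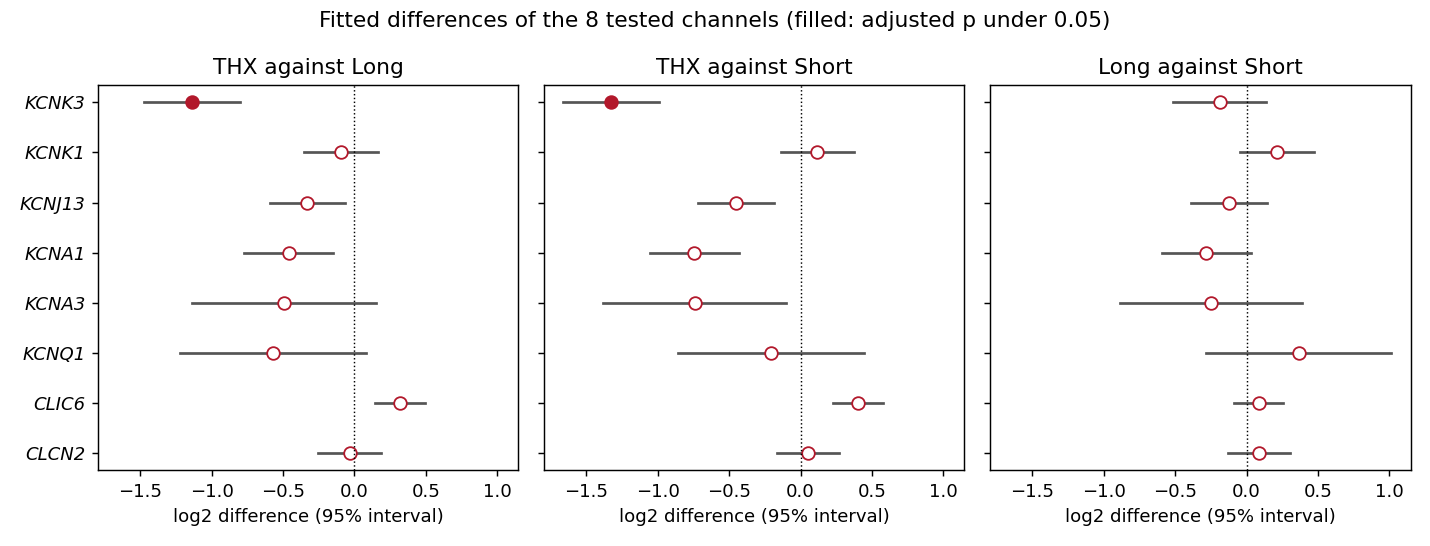
Fitted log2 difference of each channel in 3 comparisons, with its 95% interval as a line on the horizontal axis; filled points have an adjusted p under 0.05. KCNK3 is filled in both comparisons of THX pools (−1.14 and −1.32), and no channel is filled between Long and Short pools.

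Counted together, 1 of the 8 tested channels fell and none rose in THX relative to Long pools, where 0.283% of all genes were called, 0.233% lower and 0.0499% higher. The same count was 1 of 8 against Short pools, where 0.916% of all genes were called, 0.599% lower and 0.316% higher. It was 1 of 8 against the thyroid-intact pools, where 0.966% were called, 0.627% lower and 0.339% higher. At an unadjusted p under 0.05 there were 4 of the 8 channels in THX against Long pools, 5 against Short pools and 5 against the thyroid-intact pools, while 9.08%, 22.6% and 15.9% of all genes were at this level. With 1 pool left out, 0 of the 8 were called against Long pools whichever pool it was. Against Short pools no call held when a Long or Short pool was left out. Which channels were called otherwise changed with the pool left out, and so did the number of genes called over all genes. A call in 1 such fit is therefore not read as a result about that channel. DESeq2 called 2 of the 8 against Long pools (KCNK3 and CLIC6) and 4 against Short and against thyroid-intact pools (KCNK3, KCNJ13, KCNA1 and CLIC6), and limma-voom called KCNK3 alone in each. Of all genes DESeq2 called 2.46%, 11.7% and 6.59%, and limma-voom counts were within 1.5 times those of edgeR.

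The median log2 difference of the 8 was −0.39 between THX and Long pools, against 0.00 over all tested genes, with 7 below 0. It was −0.33 between THX and Short pools, where all tested genes had a median of −0.01. Groups did not overlap in 6 of the 8 channels between THX and Long pools, 5 lower and 1 higher in THX. Of all tested genes 37.2% were separated in this way, 18.7% lower and 18.5% higher. Against Short pools 5 of the 8 were separated, 4 lower and 1 higher, and of all genes 52.5% were, 26.7% lower and 25.7% higher. Against the thyroid-intact pools 5 of the 8 were again separated, 4 lower and 1 higher, and of all genes 22.2% were, 11.3% lower and 11% higher.

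No channel passed the test between the day lengths. By edgeR 0 of the 8 passed between Long and Short pools, as did 0% of all genes, 0 had an unadjusted p under 0.05, and DESeq2 and limma-voom also called 0 of the 8. At an unadjusted p under 0.05 edgeR had 13.8% of all genes in this comparison. The log2 differences of the 8 ran from −0.28 for KCNA1 (95% interval −0.59 to 0.03) to 0.37 for KCNQ1, with 4 above and 4 below 0 and a median of −0.02. Groups did not overlap in 7 of the 8 channels, 4 lower and 3 higher in Long pools. Of all genes 53.5% were separated between these pools, 26.8% lower and 26.7% higher, and DESeq2 called 1.11% of them.

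Ratios of counts within a pool need no scaling between libraries. There were 1.41 and 1.11 CLIC6 counts per KCNJ13 count in THX pools, against 0.833 and 0.760 in Long pools and 0.690 and 0.690 in Short pools. Every THX pool exceeded every thyroid-intact pool in this ratio. Per 1000 KCNJ13 counts, KCNK3 had 6.46 and 4.78 counts in THX pools, 9.79 and 9.54 in Long pools, and 10.3 and 9.88 in Short pools. Per 1000 CLIC6 counts it had 4.57 and 4.29 in THX pools, 11.8 and 12.5 in Long pools, and 15.0 and 14.3 in Short pools. KCNQ1 had 0.726 and 0.519 counts per KCNE3 count in THX pools, 0.960 and 1.04 in Long pools, and 0.566 and 0.872 in Short pools, so in this ratio THX pools overlapped with Short pools. A ratio of this kind shows unequal change and not which of the 2 genes changed.

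**Figure D3:**
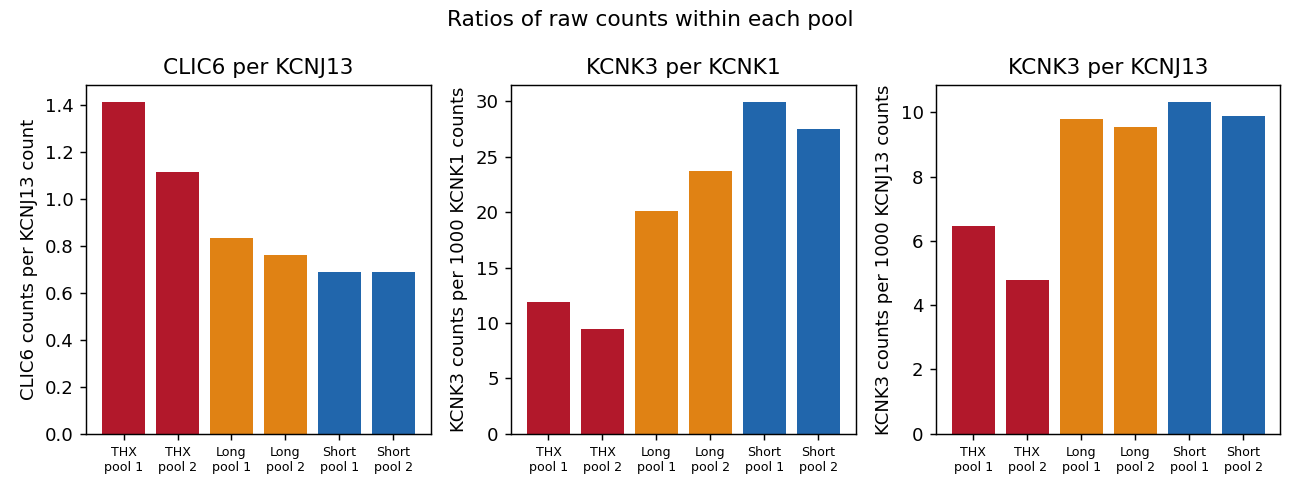
Ratios of raw counts within each of the 6 pools, as bars from 0: CLIC6 per KCNJ13 count, KCNK3 per 1000 KCNK1 counts, and KCNK3 per 1000 KCNJ13 counts. The first ratio is 1.11 or more in THX pools and 0.833 or less in the others, and both KCNK3 ratios are lowest in THX pools.

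Over the 6 pools, log2 levels of KCNK3 followed those of KCNA1 (Pearson r = 0.903) and KCNJ13 (0.868), and ran against those of CLIC6 (−0.98). Those of KCNJ13 followed KCNA3 (0.95). CLCN2 and KCNK1 had their closest match among the 8 in each other, at 0.293. These are descriptions over 6 pools that share their libraries and their 3 groups. Among 11026 genes with a symbol and a mean of at least 5 CPM, the levels most like those of KCNK3 belonged to the carboxypeptidase M gene (symbol CPM, r = 0.998), the ketone-using enzyme gene OXCT1 (0.997) and the kinase gene MARK1 (0.997). For CLIC6 they were PGS1 (0.993), MEGF10 (0.992) and SPOCK2 (0.988). For KCNA1 they were THBS3 (0.992), TRPM2 (0.987) and CROT (0.986).

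Of all genes whose symbol begins with KCN, 93 were listed and 68 tested, the members included. KCNK3 was the only one of the 68 called by edgeR in THX relative to Long, Short or all thyroid-intact pools, where edgeR called 0.283%, 0.916% and 0.966% of all genes. DESeq2 called 5 of the 67, 10 of the 44 and 11 of the 48 to which it gave an adjusted p in these comparisons, against 2.46%, 11.7% and 6.59% of all genes. The median log2 difference of the 68 was −0.03 between THX and Long pools, with 32 above and 36 below 0, against a median of 0.00 over all tested genes. Next by p in this comparison, among those with a mean of at least 2 CPM, came KCNA5 (Kv1.5) and KCNJ12 (Kir2.2). KCNJ12, a strong inward rectifier, had 5.02 and 3.75 CPM in THX pools, against 7.51 and 9.83 CPM in Long pools and 11.03 and 9.94 CPM in Short pools, and its difference from the thyroid-intact pools of −1.12 on the log2 scale did not pass (SE 0.187, adjusted p = 0.053). KCNA5 had 49.1 and 57.8 CPM in THX pools, against 72.3 and 75.6 CPM in Long pools and 63.9 and 68.0 CPM in Short pools, and its difference from Long pools of −0.47 on the log2 scale did not pass (adjusted p = 0.18). KCNQ5, a subunit related to KCNQ1, lay the other way, with 5.53 and 3.55 CPM in THX pools, against 2.57 and 1.88 CPM in Long pools and 1.77 and 1.69 CPM in Short pools, and its difference from the thyroid-intact pools of 1.21 on the log2 scale did not pass (adjusted p = 0.0772).

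Within the 2-pore-domain family, 10 of 11 tested genes were below 0 in log2 difference between THX and Long pools, as were 8952 of the 18019 tested genes. Of the 11, 3 were separated lower in THX pools, as were 18.7% of all genes. Some of the 10 lay close to 0, such as KCNK12 (−0.02) and KCNK13 (−0.03). KCNK4, KCNK7, KCNK10, KCNK12 and KCNK16 were under 1 CPM in every pool. Of these, KCNK10 was the gene above 0 (1.38, SE 1.37). Between THX and Short pools 6 of 11 were below 0, and between THX and all thyroid-intact pools 8 of 11. KCNK2 (TREK-1), a mechanically and heat-gated relative of KCNK3 that was picked after its values were seen, had 13.9 and 16.8 CPM in THX pools, 26.5 and 32.9 CPM in Long pools, and 51.6 and 28.5 CPM in Short pools. Its log2 difference from the thyroid-intact pools was −1.17 (SE 0.244) and did not pass (adjusted p = 0.0959).

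Between Long and Short pools 0 of the 68 KCN genes passed by edgeR or limma-voom, and DESeq2 called 0 of the 43 to which it gave an adjusted p. By edgeR 4 of the 68 had an unadjusted p under 0.05, against 13.8% of all genes. The lowest p among the more abundant ones was that of KCNG4, a subunit that modifies KCNB channels, with 48.3 and 47.95 CPM in Long pools against 121 and 78.6 CPM in Short pools, a difference of −1.06 on the log2 scale (adjusted p = 0.342). KCNAB2, a beta subunit, had a difference of −0.25 and did not pass.

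Among 29 tested genes of chloride channels and their subunits, edgeR called 0 in all comparisons. Their median log2 difference between THX and Long pools was −0.01, against 0.00 over all tested genes, with 14 above and 15 below 0. Between THX and Long pools 3 had an unadjusted p under 0.05 (9.08% of all genes), and DESeq2 called 2 of 29 (2.46% of all genes) and limma-voom 0. Between THX and Short pools 8 had an unadjusted p under 0.05 (22.6% of all genes), and DESeq2 called 7 of the 26 it gave an adjusted p (11.7% of all genes) and limma-voom 1. Against all thyroid-intact pools the unadjusted count was 6 (15.9% of all genes), and DESeq2 called 5 of 27 (6.59% of all genes) and limma-voom 0. Between Long and Short pools it was 5 (13.8% of all genes), and DESeq2 called 1 of 26 (1.11% of all genes) and limma-voom 0. Over all genes, limma-voom counts were within 1.5 times those of edgeR. CLIC6 had the lowest p of this list against Long and against all thyroid-intact pools. LRRC8C, a subunit of the volume-regulated anion channel, had 4.33 and 3.87 CPM in THX pools, 5.14 and 4.69 CPM in Long pools, and 8.03 and 7.67 CPM in Short pools, with log2 differences of −0.94 between THX and Short pools (adjusted p = 0.0552) and −0.68 between Long and Short pools (adjusted p = 0.342). ANO6, a calcium-activated scramblase and channel, had 69.7 and 64.0 CPM in THX pools, 75.1 and 71.7 CPM in Long pools, and 86.6 and 87.8 CPM in Short pools, and did not pass (adjusted p = 0.0739 between THX and Short pools). In both genes the Short pools were the highest. The others named by rank were LRRC8B (log2 difference −0.33) and TTYH3 (0.19) between THX and Long pools and CLCN5 (−0.41) between Long and Short pools, and none of them passed.

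Among 21 tested regulators and partners of these channels, SGK1 and CAB39L fell in THX relative to Long pools, where 0.283% of all genes were called. As this list was picked with earlier results of these data known, its counts of calls are descriptive. Relative to Short pools SGK1 and CAB39L fell and WNK4 rose, where 0.916% of all genes were called. Relative to all thyroid-intact pools SGK1 and CAB39L fell and WNK4 and STK39 rose, where 0.966% of all genes were called. DESeq2 called 4 of 21 against Long, 6 of 18 against Short and 5 of 20 against thyroid-intact pools. Of all genes it called 2.46%, 11.7% and 6.59%. In the same order limma-voom called 2, 3 and 4 of the 21, and over all genes its counts were within 1.5 times those of edgeR. The median log2 difference of the 21 from Long pools was −0.00, against 0.00 over all tested genes, with 10 above and 11 below 0. SGK1, a kinase that raises the surface amount of several channels, had 262 and 295 CPM in THX pools, against 464 and 504 CPM in Long pools and 511 and 494 CPM in Short pools, a difference of −0.82 from the thyroid-intact pools on the log2 scale (SE 0.0794, adjusted p = 0.0124). WNK4, a kinase of the chloride-sensing WNK family, had 82.3 and 77.9 CPM in THX pools, against 44.9 and 55.4 CPM in Long pools and 42.0 and 39.5 CPM in Short pools, a difference of 0.82 (SE 0.0936, adjusted p = 0.0173). Its substrate STK39, or SPAK, had 239 and 199.7 CPM in THX pools, against 142 and 153 CPM in Long pools and 147 and 139.7 CPM in Short pools, a difference of 0.59 (adjusted p = 0.0396). CAB39L, a scaffold that activates STK39, had 301 and 290.2 CPM in THX pools, against 466 and 452 CPM in Long pools and 530 and 513 CPM in Short pools, a difference of −0.73 (adjusted p = 0.00907). Leaving out 1 pool at a time, the calls of SGK1 and CAB39L against the thyroid-intact pools were lost without either Long pool (highest adjusted p = 0.0726 for both). That of STK39 held only without THX pool 2 (adjusted p = 0.0286), and was lost without each of the other 5 (up to 0.168). That of WNK4 was lost without any one pool (adjusted p from 0.0555 to 0.0634). The log2 differences stayed between −0.91 and −0.74 for SGK1, −0.75 and −0.70 for CAB39L, 0.46 and 0.72 for STK39, and 0.75 and 0.91 for WNK4. Against Long pools the call of SGK1 held only without THX pool 2 (adjusted p = 0.0353), and that of CAB39L was lost without any one pool (from 0.0629 to 0.316). Against Short pools the call of SGK1 was lost without any Long or Short pool (up to 0.135), that of CAB39L without either Long pool or Short pool 1 (up to 0.0843), and that of WNK4 without THX pool 2 or either Short pool (up to 0.137).

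SLC5A3, the myo-inositol transporter that binds KCNQ1 and KCNE2 in mouse choroid plexus, had 1000.4 and 846 CPM in THX pools, 863 and 786 CPM in Long pools, and 1225 and 991 CPM in Short pools. It did not pass in any comparison, with the lowest p between Long and Short pools (log2 difference −0.43, SE 0.131, adjusted p = 0.342). WNK1, another kinase of the WNK family, and AKAP9, a scaffold that assembles kinases with KCNQ1 in the heart, had log2 differences of −0.48 and −0.61 in that comparison (adjusted p = 0.342 for both). Of the 21 regulators and partners 0 passed between Long and Short pools by edgeR, and 5 had an unadjusted p under 0.05, against 13.8% of all genes. DESeq2 called 1 of the 18 to which it gave an adjusted p, against 1.11% of all genes, and limma-voom 0.

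Of 15 tested pumps and transporters that load potassium or chloride into the epithelium, ATP1B2 alone was called by edgeR. It rose in THX relative to Short pools and to all thyroid-intact pools, where 0.916% and 0.966% of all genes were called. ATP1B2 is a beta subunit of the sodium pump. It had 372 and 389.5 CPM in THX pools, against 284 and 290.2 CPM in Long pools and 274 and 284 CPM in Short pools, a difference of 0.43 from the thyroid-intact pools on the log2 scale (SE 0.0602, adjusted p = 0.0374). This call was lost without any one of the pools (adjusted p from 0.0524 to 0.189, log2 difference from 0.40 to 0.46). That against Short pools (0.45, adjusted p = 0.0454) held only without THX pool 1 (adjusted p = 0.0363). The median log2 difference of the 15 from the thyroid-intact pools was −0.15, against −0.00 over all tested genes, with 5 above and 10 below 0. From Short pools 4 lay above and 11 below 0. At an unadjusted p under 0.05, 8 were lower and 1 higher against Short pools (22.6% of all genes). Against the thyroid-intact pools 6 were lower and 1 higher (15.9%). Against Long pools, at the same day length, 0 were lower and 1 higher (9.08%), with a median log2 difference of −0.07. DESeq2 called 4 of 14 lower and 1 higher against Short pools (11.7% of all genes). Against the thyroid-intact pools it called 1 of 15 lower and 1 higher (6.59%), and against Long pools 0 of 15 lower and 1 higher (2.46%). SLC12A2, the sodium-potassium-chloride cotransporter NKCC1, had 382 and 293 CPM in THX pools, 412 and 423 CPM in Long pools, and 589 and 445 CPM in Short pools, and did not pass (log2 difference from the thyroid-intact pools −0.46, adjusted p = 0.209). Others named by rank did not pass: ATP1B1 (log2 difference −0.29) between THX and Long pools, and SLC4A5 (−0.70) and SLC12A4 (−0.30) between THX and Short pools. Between Long and Short pools the bicarbonate transporter genes SLC4A10 and SLC4A5 had log2 differences of −0.73 and −0.58 (adjusted p = 0.342 for both). In that comparison 0 of the 15 passed by edgeR, and 4 had an unadjusted p under 0.05, against 13.8% of all genes. DESeq2 called 1 of 14, against 1.11% of all genes, and limma-voom 0.

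**Figure D4:**
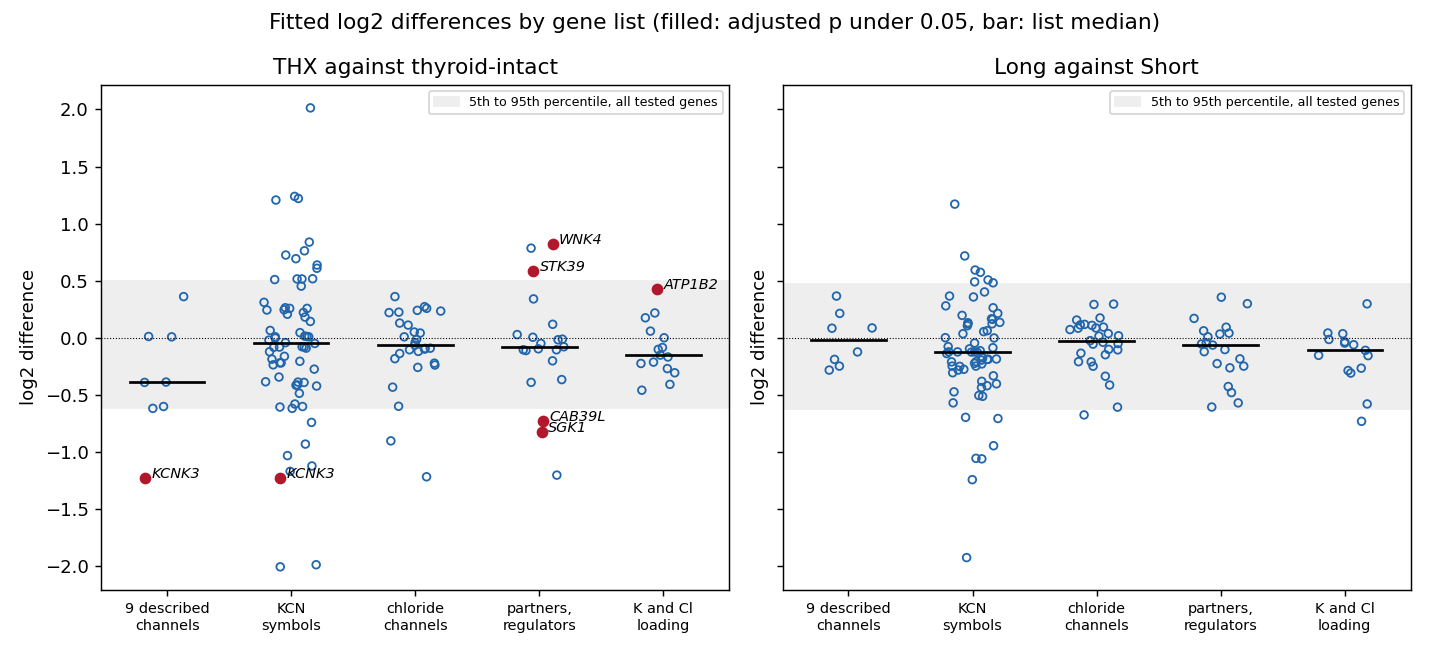
Fitted log2 difference, on the vertical axis, of each tested gene in 5 lists (the 8 channels, KCN genes, chloride channel genes, regulators and partners, loading transporters), for THX against all thyroid-intact pools and for Long against Short pools; the grey band holds the central 90% of all tested genes, black bars are list medians and filled points have an adjusted p under 0.05. KCNK3 (−1.23), SGK1 and CAB39L are the filled points below 0, WNK4, STK39 and ATP1B2 those above, and none is filled for Long against Short pools.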

How the data were processed

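The 6 libraries were made from polyA RNA with a strand-marking kit, as the labels state. The submitters' processing notes name TopHat2 2.1.1, featureCounts 2.0.0 and SAMtools 1.9, besides bcl2fastq 2.20, FastQC 0.11.8 and MultiQC 1.9. What the authors deposited is 1 table of raw counts per gene, without normalisation. Which build, annotation and strand setting the counting used is "not given in the sources used here", and overlapping genes are uncertain for that reason.

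In R 4.3.3, genes were filtered by edgeR 4.0.16 (default expression filter for the 3 groups), scaled by TMM factors and fitted with 1 mean per group over all 6 pools (3 residual degrees of freedom), and 4 contrasts were tested by two-sided quasi-likelihood F tests with Benjamini-Hochberg adjustment over 18019 genes. Each SE and 95% interval comes from this fit. Levels for likeness are log2 CPM with a prior count of 2. The alternatives used DESeq2 1.42.0 and limma-voom (limma 3.58.1), other scaling and filters, fewer pools and a term for pool number. The procedure was also run on simulated data, and the outcome is not reported here. Of the identifiers, 28100 were in the RefSeq table. Counts of the 2 pools differed beyond sampling noise in every group, most in THX pools. The mean chi-square per gene was 70.1 in THX, 15.8 in Long and 28.3 in Short pools, while the fit takes the same spread for all groups.

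The channels were chosen by name, and they and the gene lists were picked with earlier results of these data known. From each list the text names genes called and, per comparison, the 3 with the lowest p among those with a mean of at least 2 CPM, except a few that are not reported here; KCNE1, KCNE3 and KCNK2 were added after their values were seen. Python 3.11.15 and matplotlib 3.10.9 drew the figures.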

Additional observations from a re-analysis of the deposited data

How the results depend on the processing

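Of the values of the 8 channels under the alternatives, 361 kept direction and side of the threshold, 16 passed newly, 18 no longer passed and 9 changed sign; the cause was not tested. DESeq2 called 440 genes in THX against Long pools, 158 in Long against Short, 1721 in THX against Short and 1031 in THX against thyroid-intact pools, and 2, 0, 4 and 4 of the channels, where edgeR called 51, 0, 165 and 174 genes. Without a filter on low counts, edgeR called 204, 908 and 553 genes in the 3 comparisons of THX with Long, Short and thyroid-intact pools, and 4 channels against Short and 3 against thyroid-intact pools. With only the pools of the groups compared it called 22 genes against Long and 11 against Short pools, and 0 channels in either; for the thyroid-intact pools this is the full fit. RLE scaling, limma-voom and a mean of at least 5 CPM kept every count of genes and channels within 1.5 times, but KCNA3 is under that mean. The pool numbers did not pair the pools: deviations of same-numbered pools correlated at 0.067 (THX and Long), 0.211 (THX and Short) and −0.0586 (Long and Short). With the replicate block, 392 genes and 2 channels (KCNK3 and KCNA1) were called against Short pools, 264 genes against thyroid-intact pools, and 0 channels against Long pools (KCNK3, adjusted p = 0.0511). Leaving out 1 pool, where the lone pool of a group is assumed to vary like the others, gave 2 to 37 genes in THX against Long, 0 to 4 in Long against Short, 10 to 1087 in THX against Short and 10 to 122 in THX against thyroid-intact pools, and 0 to 0, 0 to 0, 0 to 3 and 0 to 1 channels. All changes of sign came from leaving out a pool, in values near 0. They were KCNK1 against Long (−0.21 to 0.0238) and thyroid-intact pools (−0.10 to 0.12), KCNQ1 against Short pools (−0.61 to 0.12), and CLCN2 against Long (−0.0705 to 0.00211), Short (−0.0307 to 0.14) and thyroid-intact pools (−0.0325 to 0.0508). With 74 to 211 counts for KCNA3 per pool, and 0 or 1 for KCNE2, depth limits what can be detected of these channels.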
